A study of Mus musculus with 12 samples.

Results

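Heat shock genes, 10 of the 55401 genes in the count table, were followed through the RNA-seq data of 12 TC2Ras mouse prostate tumors. They are Hsf1, the transcription factor of the response, and 9 chaperone or co-chaperone genes: Hspa1a, Hspa1b, Hspa8, Hspa5, Hsph1, Dnajb1, Bag3, Hsp90aa1 and Hspb1. They were taken by symbol, through their Ensembl identifiers, and 10 of 10 were found and passed the filter on low counts. Tumors were grown under the skin of both flanks from 125000 TC2Ras cells and were taken at day 21. There were 4 groups with 3 samples each: Control tumors had neither addition, ASC tumors were started with 1% adipose-derived mesenchymal/stromal cells (ASC, primary cells marked with GFP), As300 tumors came from mice drinking 300 ppb inorganic arsenic (iAs), and ASC_As300 tumors had both (the labels write A300 and ASC300). Mice of every group ate low-arsenic chow and drank purified water for the 2 weeks before implantation, and their strain and age are not given in the sources used here. All tumors derive from the same implanted line, and the left and right flank tumors of a mouse were combined before RNA was made, so that 1 sample stands for 1 mouse.

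Heat shock proteins bind unfolded proteins and help them to fold, to be held in solution or to be degraded. In resting cells HSF1 is kept inactive by chaperones. When damaged proteins occupy those chaperones, HSF1 forms trimers that bind heat shock elements, inverted repeats of the letters GAA, and raises transcription of Hspa1a, Hspa1b, Dnajb1, Hsph1, Bag3 and Hspb1. Trivalent arsenic binds thiol groups of proteins and is a classic inducer of this response in cultured cells, which is why these genes are of interest beside iAs. Hspa5 belongs to a separate program, the unfolded protein response of the endoplasmic reticulum, and Hspa8 is made at a high level without stress.

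The promoters of the 2 inducible HSP70 genes and of the small heat shock gene Hspb1 are shown because they carry the element that HSF1 binds, and because the first 2 are nearly the same sequence. Each line gives the 150 bases before the RefSeq start site on the gene's own strand, in build GRCm38.p6, with the head-to-head pair GAANNTTC in capitals.
Hspa1a, chr17:34972157-34972306, minus strand: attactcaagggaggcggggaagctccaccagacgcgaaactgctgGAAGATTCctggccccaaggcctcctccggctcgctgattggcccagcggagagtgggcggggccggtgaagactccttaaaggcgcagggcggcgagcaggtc
Hspa1b, chr17:34959239-34959388, minus strand: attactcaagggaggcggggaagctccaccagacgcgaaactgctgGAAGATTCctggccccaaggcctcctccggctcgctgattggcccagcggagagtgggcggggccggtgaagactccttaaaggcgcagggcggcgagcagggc
Hspb1, chr5:135887769-135887918, plus strand: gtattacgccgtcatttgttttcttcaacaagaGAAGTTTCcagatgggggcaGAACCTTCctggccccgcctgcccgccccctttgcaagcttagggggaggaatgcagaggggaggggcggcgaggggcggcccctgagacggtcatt

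The pair began 104 bases before the start site in both Hspa1a and Hspa1b, and at 117 and 97 bases before it in Hspb1 (member positions -104, -117 and -97). Over the 300 bases from 250 before to 50 after the start, Hspa1a and Hspa1b were the same at 296 positions (98.7%) and differed at 4. Searched on both strands in that window, GAANNTTC was present in 5 of the 7 members for which RefSeq promoters were at hand (Bag3, Hspa1a, Hspa1b, Hspb1 and Hsph1) and in 7.86% of 32851 promoters of the same length. The tail-to-tail pair TTCNNGAA was present in Hsph1 alone among the 7, as TTCTCGAA before the start, and in 8.52% of all promoters. After its start both pairs overlap in Hsph1 as a run of 3 repeats, which 0.603% of all promoters held in either order. Dnajb1 and Hspa5 held neither pair in this window. Hspa5 held the endoplasmic reticulum stress element (ERSE, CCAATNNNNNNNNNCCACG on either strand), whose letters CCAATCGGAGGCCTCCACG began 65 bases before its start (position -65) and which 0.119% of all promoters held. Matches describe letters in a window and not binding. The promoters of Hsf1, Hspa8 and Hsp90aa1 were not used here.

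Total counts ran from 39157647 to 55168642 per tumor, and correlations of log2 CPM (counts scaled to a common library size, with trimmed mean of M values factors) between tumors of the same group lay between 0.946 and 0.974. Although the cell type label names stromal cells, the RNA came from whole excised tumors by the study's methods, and markers of several cell types were found in it. The summed level of 10 stromal genes was 4294 to 8386 CPM, of 10 leukocyte genes 946 to 1525, of 6 endothelial genes 145 to 248, of 7 adipocyte genes 32.1 to 764, and of 9 epithelial genes 27.6 to 364, with Krt5 or Cldn7 at 0 in 9 tumors. A list of 12 fast skeletal muscle genes reached 2026 CPM in Control replicate 2 and 1986 in As300 replicate 1, was 401 in ASC replicate 2, and was between 2.73 and 160.3 in the other 9 tumors. Control replicate 1 stood apart on the first principal component of all genes. In such bulk tissue, fewer cells of a type and less RNA per cell cannot be told apart. Of all genes, 20818 passed the filter on low counts. Below, a gene is said to be called where edgeR's quasi-likelihood test gave a Benjamini-Hochberg adjusted p under 0.05 over these genes and the change was at least 1.5-fold (0.585 on the log2 scale).

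Levels of the 10 genes spanned a wide range (plot of CPM by tumor). Divided by the length of the annotated exons, the mean over 12 tumors was highest for Hspa8, the constitutive HSP70, at 585 ± 47.2 CPM per kb (SD, n = 12). Hsp90aa1, the inducible cytosolic HSP90, followed at 264 ± 39.6 CPM per kb, and Hspa5 (BiP, the HSP70 of the endoplasmic reticulum) at 200.1 ± 24.99 CPM per kb. The next were Hspa1b at 37.9 ± 15.6, Dnajb1 at 28.5 ± 5.62, Hspb1 at 26.5 ± 26.1, Bag3 at 25.4 ± 3.16 and Hsph1 at 17.2 ± 3.27 CPM per kb. Hsf1 at 10.7 ± 0.923 and Hspa1a at 10.4 ± 4.98 CPM per kb were the lowest. The ranges over tumors did not overlap between Hspa8 and Hsp90aa1, between Hspa5 and Hspa1b, and between Hsph1 and Hsf1, and they overlapped between all other neighbours in this order. Hspb1, Hspa1a and Hspa1b varied far more among tumors than the rest: the highest tumor held 20.05 times the lowest for Hspb1, 7.06 times for Hspa1a and 5.62 times for Hspa1b, against 1.31 for Hspa8 and 1.296 for Hsf1.

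**Figure D1:**
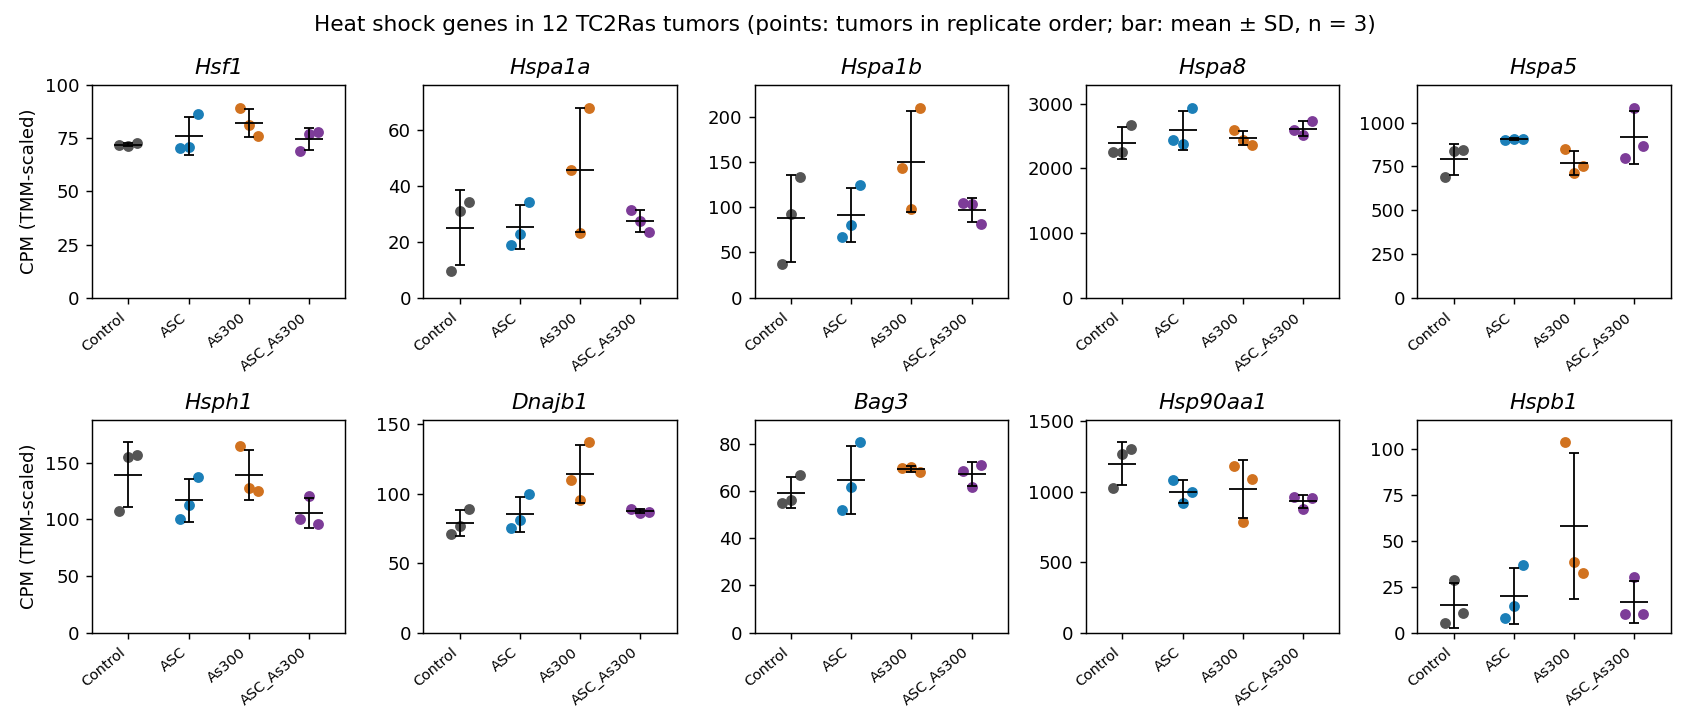
Level of each of the 10 genes in each tumor, in CPM on a linear axis starting at 0. Points are tumors in replicate order within the 4 groups, and bars are the mean ± SD of 3 tumors. Hspa1a, Hspa1b and Hspb1 scatter widely in Control and As300, while Hsf1 and Hspa8 hardly move.

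Hsf1 (ENSMUSG00000022556, chr15:76477422-76501913 in GENCODE M21 on GRCm38) had the smallest ratio of highest to lowest tumor. It measured 72.0, 71.1 and 72.6 CPM in Control tumors, 70.5, 71.1 and 86.3 in ASC, 89.3, 81.3 and 76.0 in As300, and 68.9, 77.1 and 78.2 in ASC_As300. The 3 As300 tumors lay above the 3 Control tumors (all genes 14.5% higher in this way), and the other groups overlapped with both. The log2 difference of As300 from Control was 0.19 (SE 0.09, edgeR adjusted p = 0.235), and that of ASC_As300 from ASC was -0.02 (SE 0.09, edgeR adjusted p = 1). With a correction for transcript GC content the first value became -0.04, so that its direction depended on that choice. Among 9 other heat shock factors and regulators of HSF1, 4 were higher and 5 lower in As300 than in Control, and none was called (all genes 1.06%). Sirt1, a deacetylase that keeps HSF1 on DNA, differed by -0.54 on the log2 scale (SE 0.12, edgeR adjusted p = 0.0450), which is under the minimum of 1.5-fold. Hsf2 differed by -0.28 (SE 0.11, edgeR adjusted p = 0.136) and Hsbp1, an inhibitor of HSF1 trimers, by 0.21 (SE 0.07, edgeR adjusted p = 0.104). For Sirt1 and Hsf2 the ASC tumors without iAs were as low as the As300 tumors. Sirt1 averaged 40.9 CPM in Control, 28.6 in ASC, 28.1 in As300 and 28.3 in ASC_As300 (interaction 0.52, SE 0.17, edgeR adjusted p = 0.309). Hsf2 averaged 34.0, 26.2, 28.0 and 28.1 CPM in the same order (interaction 0.39, SE 0.15, edgeR adjusted p = 0.328).

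The inducible HSP70 genes, Hspa1a (chr17:34969190-34972156) and Hspa1b (chr17:34956436-34959238), are neighbours on the minus strand that encode almost the same protein. Hspa1b measured 37.3, 92.5 and 133.4 CPM in Control tumors and 142.9, 98.4 and 209.7 CPM in As300 tumors. It measured 67.5, 80.7 and 124.5 CPM in ASC and 104.7, 103.4 and 81.2 CPM in ASC_As300 tumors. Control replicate 1 was the lowest and As300 replicate 3 the highest of 12, and the groups overlapped in each comparison. Hspa1a was at a lower level, again with the lowest value in Control replicate 1 and the highest in As300 replicate 3, and measured 9.61, 31.0 and 34.2 CPM in Control, 18.9, 22.8 and 34.1 in ASC, 45.9, 23.3 and 67.8 in As300, and 31.4, 27.5 and 23.5 in ASC_As300. The log2 difference of As300 from Control was 0.78 for Hspa1b (SE 0.39, 95% interval -0.06 to 1.62, edgeR adjusted p = 0.243) and 0.87 for Hspa1a (SE 0.43, -0.07 to 1.81, edgeR adjusted p = 0.243). Both rested in part on single tumors: the Hspa1b value was 0.43 without Control replicate 1 and 0.48 without As300 replicate 3, and the Hspa1a value was 0.50 and 0.49. Without Control replicate 3 they were 1.23 and 1.19, and in all of these the edgeR adjusted p stayed between 0.136 and 0.591. In tumors with ASC the iAs difference was 0.09 for Hspa1b (95% interval -0.75 to 0.92) and 0.12 for Hspa1a (-0.81 to 1.06). Of all 100-base windows of their transcripts, 47.1% in Hspa1a and 49.9% in Hspa1b occur in the other gene, so how reads were divided between them is uncertain. Hspa1a held 19.1% to 25.1% of the pair's counts in every tumor, and the pair summed differed by 0.80 between As300 and Control (SE 0.39, edgeR adjusted p = 0.239).

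Among the partners of HSP70, Dnajb1 (HSP40, chr8:83608193-83612653), which delivers substrates to HSP70 and starts its ATPase, measured 70.7, 77.1 and 88.8 CPM in Control, 75.4, 80.7 and 99.6 in ASC, 110.0, 95.5 and 136.9 in As300, and 89.2, 86.3 and 86.8 in ASC_As300. The 3 As300 tumors were all above the 3 Control tumors (all genes 14.5% higher in this way). Of them, 2 were above every tumor of the other groups, for which no share of all genes was counted. The log2 difference from Control was 0.53 (SE 0.14, 95% interval 0.24 to 0.83), with an unadjusted p of 0.00199 and an edgeR adjusted p of 0.0538. It was not called, since neither the adjusted p nor the minimum of 0.585 was reached. DESeq2 gave 0.55 with an adjusted p of 0.00310, again under the minimum fold, and the adjusted p was under 0.05 in 7 of 23 other settings and reached 0.186 in another. In tumors with ASC the iAs difference was 0.04 (95% interval -0.26 to 0.33). The difference between both iAs effects was -0.50 (SE 0.19, unadjusted p = 0.0238, edgeR adjusted p = 0.325).

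Bag3 (chr7:128523616-128546981), a nucleotide exchange factor that sends HSP70 clients to autophagy, measured 54.9, 56.4 and 66.9 CPM in Control and 69.7, 70.4 and 68.0 CPM in As300 tumors. These groups did not overlap (all genes 14.5% higher in this way). However, ASC tumors spanned both, at 52.2, 61.8 and 80.6 CPM, and ASC_As300 tumors held 68.6, 61.7 and 71.3 CPM. The log2 difference of As300 from Control was 0.22 (SE 0.14, edgeR adjusted p = 0.345), and 0.01 with the GC correction. Hsph1 (HSP110, chr5:149614287-149636376), which releases ADP from HSP70, had iAs differences with intervals on both sides of 0: the value was -0.01 without ASC (95% interval -0.37 to 0.36) and -0.15 with it (-0.51 to 0.22). It measured 100.1, 112 and 138 CPM in ASC and 99.9, 120.4 and 96.0 in ASC_As300, against 107, 155 and 157 in Control and 165, 128 and 125 in As300. Tumors with and without ASC overlapped, and the ASC difference averaged over both iAs levels was -0.33 (SE 0.12, unadjusted p = 0.0164, edgeR adjusted p = 0.287). Without the muscle-rich tumors it was -0.22 (edgeR adjusted p = 0.643).

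Among the abundant members, Hspa8 (chr9:40800984-40810087), which folds new proteins in unstressed cells, held 2256, 2246 and 2678 CPM in Control, 2444, 2384 and 2938 in ASC, 2594, 2446 and 2369 in As300, and 2590, 2513 and 2737 in ASC_As300. All 4 groups overlapped, and the iAs differences were 0.05 without ASC (95% interval -0.18 to 0.27) and 0.01 with ASC (-0.21 to 0.24). These intervals lie inside the 1.5-fold limits on both sides. Hsp90aa1 (chr12:110690605-110702728), whose protein matures kinases and steroid receptors and also holds HSF1 inactive, had 1025, 1270 and 1301 CPM in Control, 1082, 920 and 999.8 in ASC, 1182, 785 and 1089 in As300, and 962, 877 and 958 in ASC_As300. Its 3 ASC_As300 tumors were below the 3 Control tumors, but the share of all genes that separate these groups was not counted. The iAs differences were -0.23 (95% interval -0.54 to 0.07) without ASC and -0.10 (-0.41 to 0.20) with ASC, and the ASC difference was -0.19 (SE 0.10, edgeR adjusted p = 0.530). Other genes, 7 in number and most of them unnamed copies, share 100-base windows with Hspa8, of which Gm15459 was the highest at 217 CPM on average, and Gm12346 with 36.1 CPM shares windows with Hsp90aa1, so that reads may have been divided among them.

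Hspb1 (HSP25 in the mouse, chr5:135887919-135889563), a small heat shock protein that holds unfolded proteins without ATP and steadies actin, had the widest spread of the members. It measured 5.17, 28.5 and 10.8 CPM in Control, 8.14, 14.6 and 37.0 in ASC, 103.6, 38.4 and 32.2 in As300, and 10.1, 30.2 and 9.95 in ASC_As300. The 3 As300 tumors were above the 3 Control tumors (all genes 14.5% higher in this way), while ASC and ASC_As300 overlapped. The log2 difference of As300 from Control was 1.97 (SE 0.72, 95% interval 0.41 to 3.53), with an unadjusted p of 0.0177 and an edgeR adjusted p of 0.122. With ASC the iAs difference was -0.25 (95% interval -1.77 to 1.27), and the difference between both effects was -2.22 (SE 1.00, unadjusted p = 0.0453, edgeR adjusted p = 0.360).

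The tumor with the most Hspb1, As300 replicate 1, was also 1 of the 2 with high skeletal muscle genes, and skeletal muscle makes small heat shock proteins (plot against muscle genes). Without As300 replicate 1 the difference from Control was 1.25 (SE 0.72, edgeR adjusted p = 0.329), and without Control replicate 2, the other such tumor, it was 2.89 (SE 0.79, edgeR adjusted p = 0.112). Without both it was 2.15 (SE 0.71, edgeR adjusted p = 0.160). The other 2 As300 tumors had 38.4 and 32.2 CPM of Hspb1 at muscle sums of 39.9 and 6.29 CPM. Control tumors had 5.17, 28.5 and 10.8 CPM of Hspb1 at muscle sums of 2.73, 2026 and 8.37 CPM. ASC replicate 3 had 37.0 CPM of Hspb1 at a muscle sum of 160.3 CPM, and ASC_As300 replicate 2 had 30.2 at 152. Cryab, a small heat shock protein of muscle and lens, was at 71.3 CPM in As300 replicate 1 and between 7.96 and 36.9 elsewhere. Hspb7, of heart and skeletal muscle, was at 13.7 CPM in As300 replicate 1 and between 0.310 and 5.41 elsewhere. Control replicate 2 had 27.1 CPM of Cryab and 2.97 of Hspb7. Hspb6 was highest in both muscle-rich tumors, at 41.7 CPM in As300 replicate 1 and 30.0 in Control replicate 2, against 14.2 to 27.9 elsewhere. Hspb2 was at 1.45 and 1.54 CPM in these tumors and at 0 to 0.372 elsewhere. Of 9 other small heat shock genes 7 were tested, and 6 were higher and 1 lower in As300 than in Control with a median log2 difference of 0.37 (over all tested genes -0.03). None was called by edgeR, and 1 had an unadjusted p under 0.05, Cryab, with 1.26 (SE 0.52, edgeR adjusted p = 0.161). Hspb7 differed by 1.95 (SE 1.17, edgeR adjusted p = 0.344) and Hspb8, the partner of Bag3, by 0.17 (SE 0.12, edgeR adjusted p = 0.413). The part of muscle tissue in these values was not tested beyond leaving out those tumors.

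**Figure D2:**
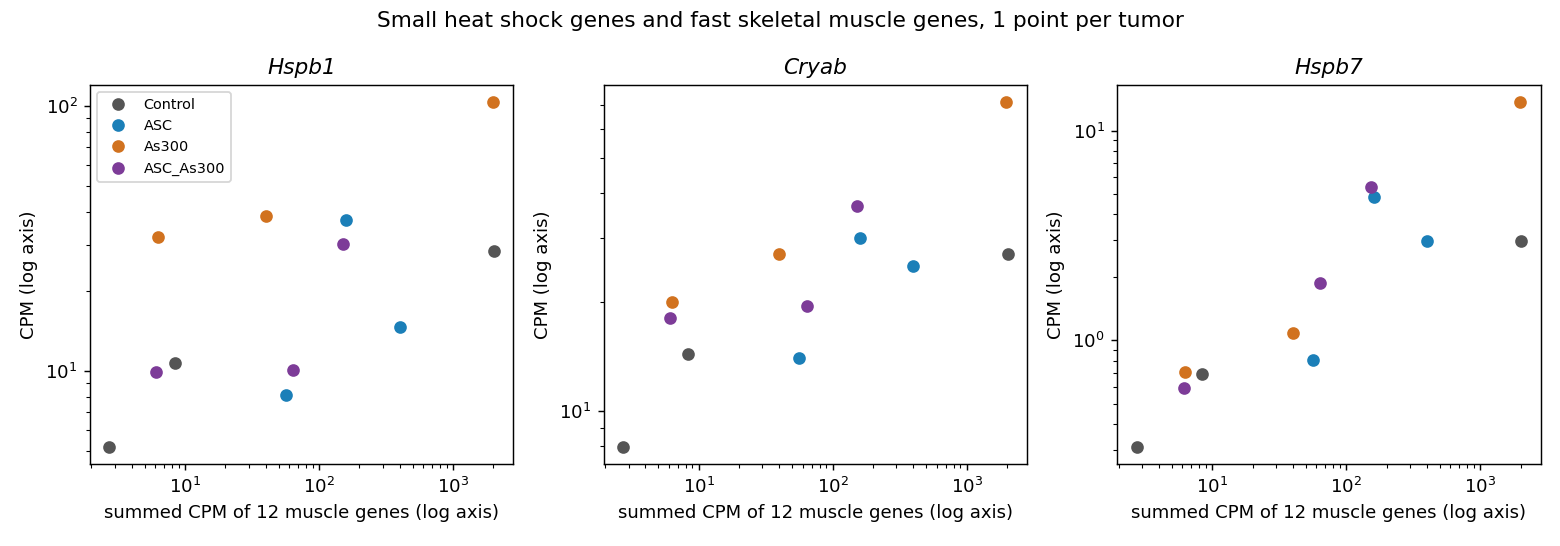
Level of Hspb1, Cryab and Hspb7 (CPM, log axis) against the summed CPM of 12 fast skeletal muscle genes (log axis), 1 point per tumor and 1 colour per group. As300 replicate 1 is highest in each panel, and the other 2 As300 tumors have 38.4 and 32.2 CPM of Hspb1 at muscle sums of 39.9 and 6.29 CPM.

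Hspa5 (chr2:34771970-34777547) measured 689.5, 836 and 844 CPM in Control, 902, 909 and 909 in ASC, 848, 711 and 754 in As300, and 796, 1086 and 869 in ASC_As300. The 3 ASC tumors were above the 3 Control and the 3 As300 tumors, whereas ASC_As300 overlapped with both. How many of all genes separate these pairs of groups was not counted, so nothing is read from this separation. The iAs differences were -0.04 without ASC (95% interval -0.29 to 0.22) and 0.02 with ASC (-0.24 to 0.27). The ASC difference, averaged over both iAs levels, was 0.22 (SE 0.08, unadjusted p = 0.0201, edgeR adjusted p = 0.317). Other genes of the unfolded protein response were described as a list of 23, all tested. In that comparison 19 were higher and 4 lower in tumors with ASC, with a median log2 difference of 0.18 against 0.00 over all genes (-0.00420), and 13 were higher and 1 lower at an unadjusted p under 0.05, against 6.93% of all genes higher. Of these, 4 had an edgeR adjusted p under 0.05, all higher, against 1.77% of all genes, but none reached 1.5-fold. They were Sdf2l1, a partner of BiP, with 0.57 (SE 0.12, edgeR adjusted p = 0.0212), the disulfide isomerase Pdia6 with 0.31 (SE 0.05, edgeR adjusted p = 0.00613), the lectin chaperone Calr with 0.29 (SE 0.06, edgeR adjusted p = 0.0141) and the disulfide isomerase Pdia4 with 0.27 (SE 0.06, edgeR adjusted p = 0.0276). The Sdf2l1 average covers unequal effects, with means of 17.1 CPM in Control, 32.9 in ASC, 26.0 in As300 and 29.9 in ASC_As300. Its As300 difference from Control was 0.61 (SE 0.16, edgeR adjusted p = 0.0609). Its interaction was -0.74 (SE 0.23, unadjusted p = 0.00742, edgeR adjusted p = 0.309). Pdia6 was at 516, 498 and 516 CPM in ASC and 464, 544 and 522 in ASC_As300 tumors, and at 389 to 421 CPM in the 6 tumors without ASC, so that these did not overlap (all genes 1.68% higher in this way). The element of the Hspa5 promoter was present in 7 of the 20 members of this list with a promoter at hand, Pdia6 and Calr among them, against 0.119% of all promoters. Epithelial markers moved with ASC too: their sum was 27.6 to 49.0 CPM in the 6 tumors with ASC and 67.3 to 364 CPM in the 6 without, and the part of cell mixture in these values was not tested.

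The iAs differences of the 10 genes were counted in tumors without and with ASC (plot of log2 differences). Without ASC, 7 members were higher and 3 lower in As300 than in Control, with a median log2 difference of 0.21 (all tested genes -0.03). By edgeR 0 of 10 were called, against 1.06% of 20818 genes, and 2 (Dnajb1 and Hspb1, both higher) had an unadjusted p under 0.05, against 11.2% of all genes higher at that level. DESeq2 called 0 and gave 3 members such a p, against 2.42% and 16.3% of the 33784 genes it was run on. It gave no adjusted p to 17700 of these genes, which could therefore not be called, and to 0 members. In the other comparisons such genes numbered 2610 to 19005, and the DESeq2 shares of called genes count them in the total. Adipocyte markers separated the same tumors, with sums of 368, 232 and 166 CPM in Control and 86.5, 82.3 and 49.7 CPM in As300, and their part in the iAs differences was not tested. The As300 and Control tumors did not overlap for 4 members, Hsf1, Dnajb1, Bag3 and Hspb1, all higher, against 14.5% of all genes in that direction. With ASC, 6 members were higher and 4 lower in ASC_As300 than in ASC, the median was 0.01, and edgeR called 0 of 10 (all genes 0%) with 0 at an unadjusted p under 0.05 (all genes 3.21%), as did DESeq2 (all genes 0.0326% and 2.67%). No member separated the 2 groups (all genes 4.17% higher and 3.91% lower). Averaged over both, 0 of 10 were called by either tool (edgeR, all genes 0%), and 1, Dnajb1 with 0.28 (SE 0.10, edgeR adjusted p = 0.209), had an unadjusted p under 0.05 by each, against 16% of all genes by edgeR. By DESeq2 0.337% of all genes were called and 11.1% had such a p.

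**Figure D3:**
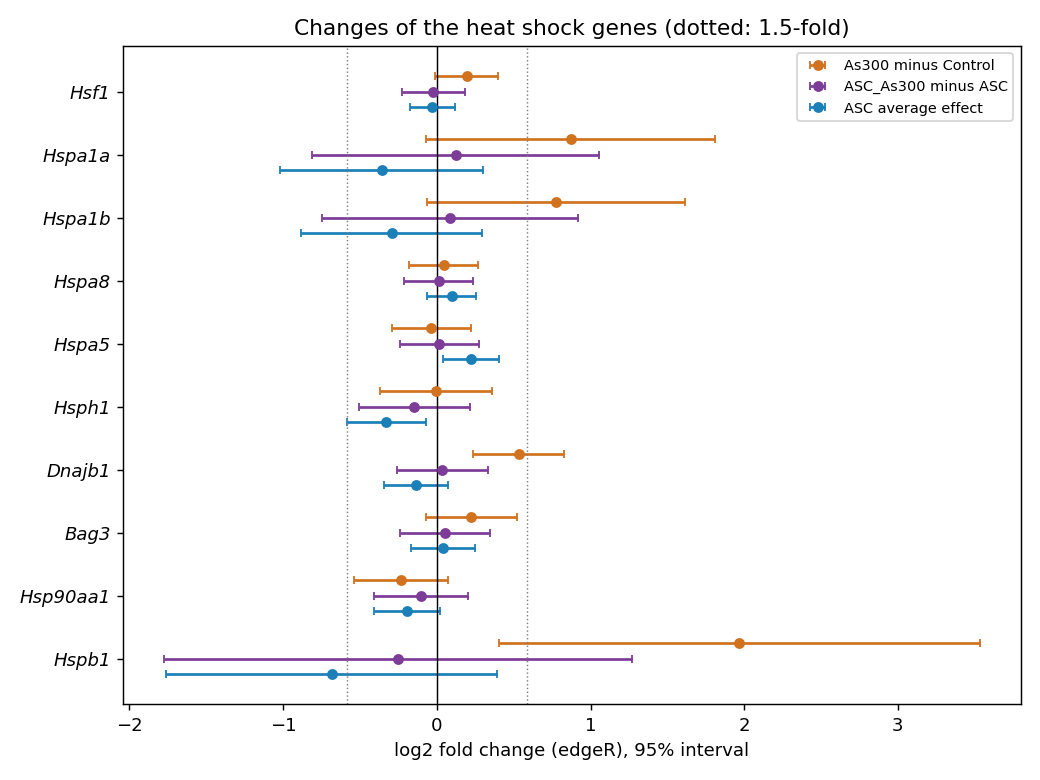
Log2 difference of each gene by edgeR with its 95% interval, for As300 against Control, ASC_As300 against ASC, and tumors with against without ASC. Dotted lines mark 1.5-fold. Only the Dnajb1 and Hspb1 intervals exclude 0 for As300 against Control, and none does for ASC_As300 against ASC.

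The interaction of iAs with ASC was negative for 8 members and positive for 2, with a median of -0.20 (all tested genes 0.01). By edgeR 0 of 10 were called (all genes 0%), 2, Dnajb1 and Hspb1, had an unadjusted p under 0.05 (all genes 13.6%), and DESeq2 called 0 (all genes 0.515%) with 1 such p (all genes 9.49%). A difference between both iAs effects was therefore not established for any member. For ASC itself, averaged over iAs, 3 members were higher and 7 lower, with a median of -0.17 (all genes 0.00, -0.00420). By edgeR 0 were called (all genes 1.45%), 2, Hspa5 and Hsph1, had an unadjusted p under 0.05 (all genes 10.9%), and DESeq2 called 0 (all genes 1.41%) with 3 such p-values (all genes 7.83%).

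The iAs difference without ASC followed the GC content of transcripts over the whole table. Its median was -0.24 among genes with the lowest GC content (22.1% to 46.6%), -0.05 in the middle range and 0.19 in the highest (52.7% and more), where the 3 ranges hold equal numbers of genes, whereas the same medians for ASC_As300 against ASC were -0.02, -0.01 and 0.01. Among the members (plot against GC content), Hsp90aa1 had the lowest GC content, 44.9%, and the lowest difference, and Hspb1 had the highest of both, with 61.2% GC. The 4 members whose groups did not overlap had between 52.4% (Dnajb1, in the middle range) and 61.2%. Hspa1a (58.9%) and Hspa1b (58.1%) lay between these values, and their groups overlapped. After each tumor's log counts were smoothed against GC content and corrected, the 3 medians were -0.03, -0.05 and -0.03. Hsf1 was then at -0.04, Bag3 at 0.01 and Hsp90aa1 at -0.08. Dnajb1 was at 0.45 (SE 0.14, unadjusted p = 0.00674, edgeR adjusted p = 0.170), Hspb1 at 1.64 (SE 0.70, edgeR adjusted p = 0.281), Hspa1a at 0.58 (SE 0.43) and Hspa1b at 0.50 (SE 0.38).

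**Figure D4:**
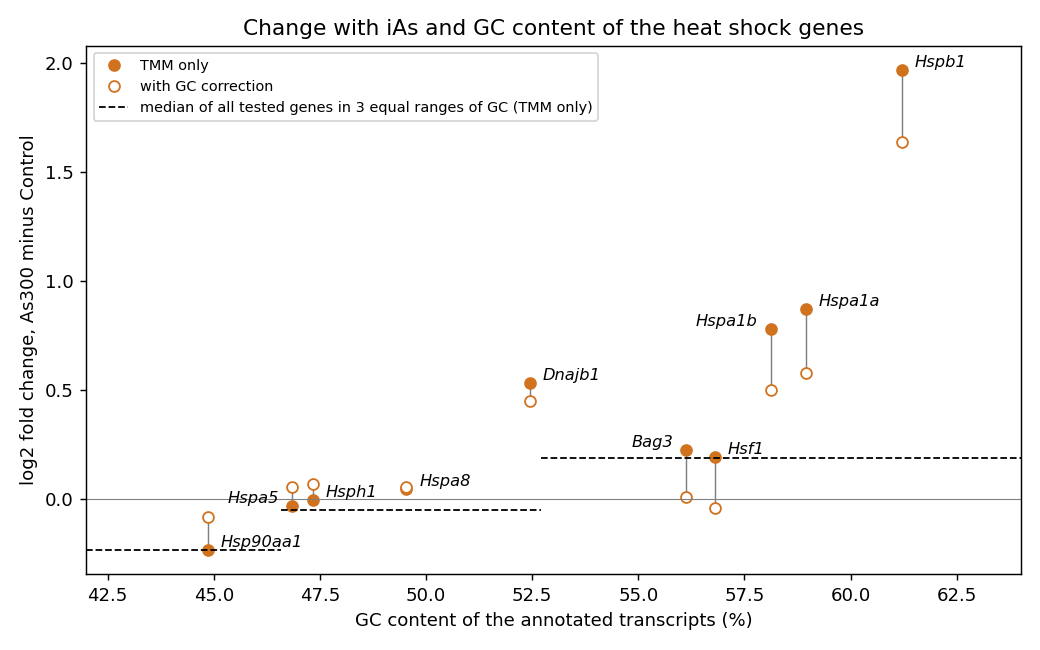
Log2 difference of As300 from Control against the GC content of each gene's annotated transcripts (%), with TMM scaling alone (filled) and with a GC correction (open). Dashed lines are the medians of all tested genes in 3 equal ranges of GC content, -0.24, -0.05 and 0.19, and the correction moved Hsf1 to -0.04 and Bag3 to 0.01.

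Over the 12 tumors the log2 CPM of most pairs of members had a positive correlation (matrix of correlations). Of 45 pairs, 40 had a Pearson r above 0, the median was 0.38, and 12 were over 0.6. These are descriptions over tumors that share groups and depth, and tumor groups are part of them. Pairs drawn from all tested genes were not summarised for reference, so no excess over other genes is read from these values. Hspa1a and Hspa1b share sequence, so their pairs over 0.6 with Dnajb1 and with Hspb1 are not separate observations. The iAs difference without ASC followed transcript GC content, and the part of GC content in these correlations was not tested. The highest were Hspa1a with Hspa1b (0.98), Hspa1b with Dnajb1 (0.88) and Hspa1a with Dnajb1 (0.86). Hspa8 and Bag3 followed with 0.77, as did Hsf1 and Hspb1 with 0.77. The 5 pairs below 0 each contained Hspa5, Hsp90aa1 or both, down to -0.22 for Bag3 with Hsp90aa1. These genes also had positive values, such as 0.55 for Hsp90aa1 with Hsph1 and 0.38 for Hspa5 with Hspa8.

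**Figure D5:**
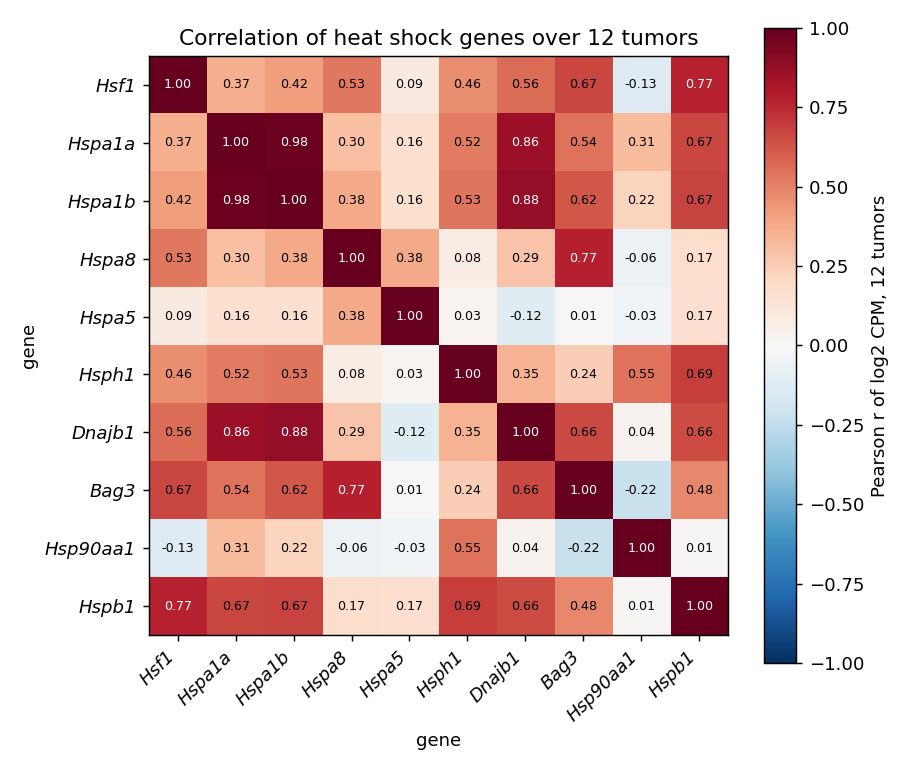
Pearson r of log2 CPM between each pair of the 10 genes over 12 tumors, from -1 (blue) to 1 (red). Hspa1a, Hspa1b and Dnajb1 form the most alike group with 0.98, 0.88 and 0.86, and Hspa1a and Hspa1b share sequence. Hspa5 and Hsp90aa1 have values near or below 0 with several members.

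Among all tested genes, those most like Hspa1b over 12 tumors were Hspa1a (r = 0.98), which shares sequence with it, Csrnp3 (0.92) and Gabra4 (0.91). Hsf1 was most like Tpt1-ps3 (0.91), Tpt1 (0.90) and Gm10232 (0.88). Hspa5 was most like Mmp2 (0.88), Mansc1 (0.87) and Il10 (0.86). The genes nearest to Hsp90aa1 were Gm12346 (0.98), with which it shares sequence, Fnip1 (0.91) and Psmc6 (0.91). For Hspb1 they were Hsp25-ps1 (0.94), a copy that shares 85.3% of its own 100-base windows with it, Tspyl4 (0.93) and 2900011O08Rik (0.92).

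Other chaperone families were described from lists, which share some genes, for As300 against Control, where edgeR called none of their genes. Among 19 other genes driven by HSF1 in heat shock, 13 were higher and 6 lower, with a median of 0.16. At an unadjusted p under 0.05, 4 were higher and 4 lower, against 11.2% of all genes higher and 13% lower. Hspe1, the mitochondrial HSP10, was at 0.49 (SE 0.14, edgeR adjusted p = 0.0690), while Chordc1, an HSP90 partner, was at -0.39 (SE 0.10, edgeR adjusted p = 0.0518) and Hspa4l, an HSP110 relative, at -0.40 (SE 0.16, edgeR adjusted p = 0.148). Of 10 other HSP70 and HSP110 genes 2 were higher and 8 lower, with Hspa9, the mitochondrial HSP70, at -0.26 (SE 0.08, edgeR adjusted p = 0.0877) and Hspa4 at -0.24 (SE 0.07, edgeR adjusted p = 0.0730). Of 18 other J-domain genes 4 were higher and 14 lower, and Dnajc2, a ribosome-bound member, was at -0.38 (SE 0.09, edgeR adjusted p = 0.0495), under the minimum fold.

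Of 15 HSP90 relatives and co-chaperones 10 were higher and 5 lower, with the ubiquitin ligase Stub1 at 0.46 (SE 0.14, edgeR adjusted p = 0.0760). Of 9 nucleotide exchange factors 7 were higher and 2 lower, with Hspbp1 at 0.53 (SE 0.15, edgeR adjusted p = 0.0714), and of 10 chaperonin genes 5 were higher and 5 lower. In ASC_As300 against ASC these lists had medians between -0.03 and 0.04, and none of their genes was called. In the ASC comparison 1 gene of the HSF1-driven list was called lower, against 0.0865% of all genes: Clu, a secreted chaperone, at -1.34 (SE 0.19, edgeR adjusted p = 0.00186). Clu was at 40.4, 56.8 and 44.8 CPM in ASC and 64.2, 62.0 and 51.8 in ASC_As300 tumors, below the 6 tumors without ASC, which held 93.6 to 183 CPM (all genes 0.216% lower in this way). The epithelial marker sum given above separated the same tumors in the same direction.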

How the data were processed

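RNA-seq data of 12 tumors in 4 groups of 3 were analysed from the table of gene counts that was deposited. According to the study's methods and the submitters' processing notes, the authors made these count values from paired-end, stranded poly(A) libraries with adapter trimming in Cutadapt 1.1.0, alignment with HISAT2 2.0 and quantification with StringTie 1.3.4. The genome build, annotation and counting step are not given in the sources used here. Values are whole numbers without normalization, with an excess of multiples of 4 among low values. Depth was 39157647 to 55168642 counts per tumor. Intervals of fitted values are 95% intervals of a difference between group means, with a spread estimated between tumors.

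Symbols, exon lengths and GC content came from GENCODE M21 (GRCm38) and promoters from RefSeq (GRCm38.p6, 7 of 10 genes matched). Software was edgeR 4.0.16, DESeq2 1.42.0 and limma 3.58.1 in R 4.3.3. Genes were kept by filterByExpr (20818), scaled by TMM, and tested across all 12 tumors with edgeR's quasi-likelihood F test on 1 mean per group. A call needed a Benjamini-Hochberg adjusted p under 0.05 over all tested genes and at least 1.5-fold. CPM values carry TMM scaling, and log2 CPM a prior count of 2. An exact test of 3 against 3 tumors cannot go below 0.1, so p-values come from these models.

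The genes and lists were chosen with earlier results of these data known. Named genes were the 10 members, up to 3 genes of a list with the smallest p in a comparison described and any called, and the 3 genes most like each of 5 members. Pdia4, and the choice of which lists to describe by example, were set after values were seen. Alternatives were DESeq2, its size factors, no filter, a filter of 10 counts in every tumor, no minimum fold, the replicate number as a block, counts divided by 4, a lowess correction for GC content, both Hspa1 genes summed, only the 6 tumors compared and leaving out each tumor. Leaving out both muscle-rich tumors was added after the data were seen. The small heat shock genes Cryaa and Hspb3 did not pass the filter.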

Additional observations from a re-analysis of the deposited data

How the results depend on the processing

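No member was called under the other settings, 23 for each comparison of iAs without or with ASC and 22 for each of the other 3 comparisons, since a fit of only the 6 tumors compared applies to the former. Of 1065 single-gene log2 differences under these settings 65 changed sign, in 23 of 50 results, and none of these was called in either direction. For As300 against Control, the GC correction turned Hsf1 to -0.0436, Hspa5 to 0.0518 and Hsph1 to 0.0674. Hspa5 was 0.00186 with at least 10 counts in every tumor and 0.00493 with counts divided by 4. Hsph1 was 0.0155 by DESeq2, 0.0157 with its size factors, 0.000909 without a filter, 0.0330 with at least 10 counts, 0.0348 with counts divided by 4 and 0.0144 in the 6 tumors alone. Without both muscle-rich tumors Hspa8 was -0.0333 in this comparison, -0.00941 for the iAs average and 0.0478 for the interaction, and Hspb1 was 0.123 for ASC. For the iAs average, Hsf1 was -0.0462 and Hspa5 0.0367 with the GC correction, and Hspa5 was 0.00424 with at least 10 counts and 0.00534 with counts divided by 4. For the interaction the GC correction gave -0.0301 for Hspa5, 0.0260 for Bag3 and -0.0110 for Hsp90aa1. The cause of these changes was not tested.

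Leaving out 1 tumor at a time gave these ranges where a sign changed. For As300 against Control they were -0.108 to 0.0406 for Hspa5 and -0.146 to 0.112 for Hsph1. For ASC_As300 against ASC they were -0.0951 to 0.241 for Bag3, -0.0560 to 0.166 for Dnajb1, -0.0852 to 0.0805 for Hsf1, -0.0612 to 0.403 for Hspa1a, -0.101 to 0.383 for Hspa1b, -0.131 to 0.106 for Hspa5, -0.0416 to 0.117 for Hspa8 and -1.01 to 0.560 for Hspb1. For the iAs average the range was -0.0720 to 0.0464 for Hspa5, and for ASC it was -0.0529 to 0.111 for Bag3 and -0.0801 to 0.00243 for Hsf1. For the interaction they were -0.341 to 0.0161 for Bag3, -0.0223 to 0.254 for Hsp90aa1, -0.118 to 0.126 for Hspa5, -0.151 to 0.0712 for Hspa8 and -0.277 to 0.000116 for Hsph1.

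With the replicate number as a block, Hsph1 was 0.0137 and Dnajb1 0.53 (edgeR adjusted p = 0.0451) for As300 against Control, the members called stayed 0, and all genes called went from 220 to 195. After each group's mean log2 CPM was subtracted, same-numbered tumors of different groups correlated between -0.124 and 0.172. Tumors with different numbers were not correlated for reference, and the number is not taken as a pairing. Over all genes the calls for As300 against Control ran from 0 (GC correction, and without both muscle-rich tumors, among others) to 816 (DESeq2), for ASC_As300 against ASC from 0 to 11, for the iAs average from 0 to 114, for ASC from 244 to 478 and for the interaction from 0 to 174.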

Other observations

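Immediate early genes, which many stresses and growth signals switch on within minutes, were described from a list of 15. In As300 against Control 11 were higher and 4 lower, with a median log2 difference of 0.18, and 6 had an unadjusted p under 0.05, all higher, against 11.2% of all genes. Adipocyte marker sums separated these tumors (166 to 368 CPM in Control, 49.7 to 86.5 in As300), and their part in these values was not tested. Among the 15 genes, 2 were called higher by edgeR, against 0.701% of all genes. Ier3 measured 60.8, 58.0 and 64.6 CPM in Control and 97.5, 107 and 86.4 in As300 tumors (log2 difference 0.67, SE 0.09, edgeR adjusted p = 0.0356). Jund, whose product is part of AP-1, measured 109.5, 116 and 113 CPM in Control and 169.5, 219.8 and 182 in As300 tumors (0.75, SE 0.16, edgeR adjusted p = 0.0430). Junb differed by 0.57 (SE 0.09, edgeR adjusted p = 0.0401), under the minimum fold. In ASC_As300 against ASC 14 of 15 were higher with a median of 0.13 and none was called by edgeR (1 at an unadjusted p under 0.05). Ier3 was there at 0.27 (SE 0.09, edgeR adjusted p = 1), and its interaction was -0.40 (SE 0.13, edgeR adjusted p = 0.309). Jund averaged 157 CPM in ASC and 164 in ASC_As300, against 113 in Control and 190 in As300. Its interaction was -0.69 (SE 0.22, edgeR adjusted p = 0.309). Junb was at 0.16 with ASC (SE 0.09), and its interaction was -0.41 (SE 0.13, edgeR adjusted p = 0.309). For As300 against Control no gene of the table, Ier3 and Jund included, was called by edgeR with the GC correction, without both muscle-rich tumors, without any 1 of the Control tumors, or without ASC_As300 replicate 1 or 3.

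Genes of the response to arsenic and oxidants gave no call by edgeR in any comparison. In As300 against Control 7 of 11 were higher and 4 lower, and 1 had an unadjusted p under 0.05: Gclc, the catalytic subunit of glutathione synthesis, at -0.39 (SE 0.12, edgeR adjusted p = 0.0825). The metallothioneins Mt1 and Mt2, which bind metals, differed by 0.43 (SE 0.20, edgeR adjusted p = 0.207) and 0.39 (SE 0.20, edgeR adjusted p = 0.253) without ASC, and by 0.25 (SE 0.20) and 0.21 (SE 0.20) with ASC.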
